A study of Mus musculus with 4 samples.

Results

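Most of the autosomal regions listed for Hopx in the early mouse heart stood alone in that list. Of the 3636 regions on the 19 autosomes in the merged list of Hopx ChIP-seq regions, 2531 had no other region within 100 kb on either side. They made up 69.6% of the autosomal regions (exact 95% interval 68.1 to 71.1%, for counting error only) and 67.0% of the 3775 regions of the whole list. These isolated regions were chosen by the measured positions themselves: regions were sorted along each chromosome, the gap was taken from the end of one region to the start of the next, and a region was kept when the smaller of its left and right gaps was above 100 kb. The number of isolated regions and the size of their gaps therefore describe the list and were not tested. Both depend on how many regions were listed, which was 1.52 autosomal regions per Mb of listed span. Another 826 autosomal regions had their nearer neighbour between 10 and 100 kb away, and 279 had it within 10 kb.

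Hopx is a small homeodomain protein that lacks the contacts most homeodomains use to hold DNA, and it acts as a cofactor carried to chromatin by other proteins. In the developing heart it is known as a regulator of cardiac progenitors and cardiomyocytes, with serum response factor, Smad proteins and histone deacetylases among its described partners. A region in a ChIP-seq list of such a cofactor marks where the protein was crosslinked near DNA, through whatever partner held it there. A region that stands far from any other is listed as a single such place, whereas neighbouring regions can belong to 1 larger element or to 1 stretch of repeated sequence. Repeated sequence was not examined for either kind.

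The chromatin came from hearts of Hopx3XFlag/+ embryos at embryonic day 9.5, in which 1 Hopx allele carries a triple Flag tag and the other is untagged. All 4 libraries share this genotype and age. About 30 to 40 hearts from 5 to 6 litters were pooled, so a library averages over embryos and over every cell type of the heart. One anti-Flag library (antibody M2) and 1 input library were made from chromatin fixed in 1% formaldehyde, and another anti-Flag library and input from chromatin fixed in formaldehyde together with EGS, a crosslinker that joins protein to protein. The design asks where Hopx sits in the genome and uses EGS because Hopx does not bind DNA directly. Each of the 4 groups held 1 library, and the libraries were deposited as a single merged list, so no region can be traced to a crosslinking condition and the conditions could not be compared. None of the 4 libraries came from untagged hearts or used control IgG, so antibody signal that does not come from Hopx could not be measured.

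All 2531 isolated regions are known by position, width and the number of peaks merged into them. The score was 1 in every row and the sequencing depth is unknown, so none can be ranked by strength or by enrichment over input. Positions are those of the mouse build mm9 and are counted from 1. Genes, promoters and sequence of that build were not used here, and whether an isolated region lies in a gene, an intron or between genes was not examined. Whether it lies in repeated or poorly mappable sequence was likewise not examined.

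The isolated regions were separated from their neighbours by distances well above the limit in most cases. The median distance to the nearer neighbour was 312 kb, with a middle 50% from 198 to 570 kb and a highest value of 4568 kb. A total of 647 regions, 25.6% of the isolated ones, had the nearer neighbour between 100 and 200 kb away. Between 200 and 500 kb lay 1127 (44.5%), between 500 kb and 1 Mb 544 (21.5%), between 1 and 2 Mb 186 (7.35%), and above 2 Mb 27 (1.07%). In bins of equal width on a log scale the fullest bin of the isolated regions ran from 178 to 316 kb, and the counts showed no break at the 100 kb limit, so the limit cuts through a continuous range.

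**Figure D1:**
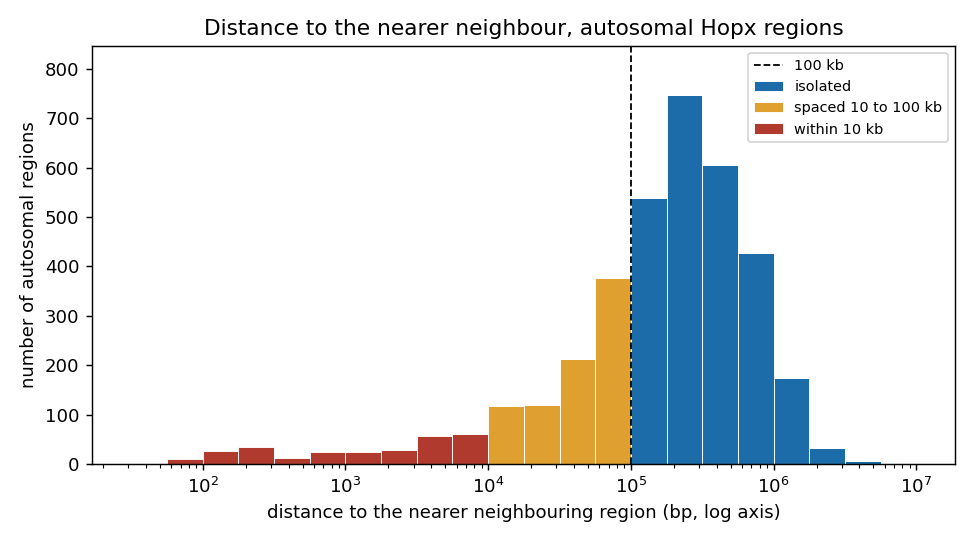
Number of autosomal regions (vertical axis) by the distance to the nearer neighbouring region in bp (horizontal log axis), stacked by class, with the 100 kb limit as a dashed line. The 2531 isolated regions lie to the right of the line with their fullest bar at 746 regions, and the bars fall off to the left without a gap at the limit.

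The 10 regions closest to the limit had smaller gaps between 99.0 and 101.2 kb. The nearest to the limit among the isolated regions were 2 neighbours on chromosome 11, chr11:103907528-103907728 and chr11:104008045-104008245, which lay 100.3 kb apart. A further 2 neighbours on chromosome 8, chr8:48690879-48691079 and chr8:48792007-48792207, lay 100.9 kb apart, and chr18:43685342-43685542 had a smaller gap of 101.2 kb. Just below the limit, and so left out, were chr10:79172599-79172799 with 99.7 kb, chr8:129621234-129621434 with 99.5 kb, chr1:179231140-179231340 with 99.4 kb, chr11:37282179-37282379 with 99.3 kb and chr10:127364909-127365109 with 99.0 kb. All 10 were 201 bp wide and came from 1 peak.

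The gaps on the left and right of an isolated region were often unequal. For the 2505 isolated regions with a neighbour on both sides, the larger gap had a median of 889 kb and was a median of 2.27 times the smaller one. In 128 of them (5.11%) the larger gap was more than 10 times the smaller. The nearer neighbour lay on the left for 1233 of the 2505 (49.2%). The other 26 isolated regions were the first or last of their chromosome and were judged by 1 gap only.

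**Figure D2:**
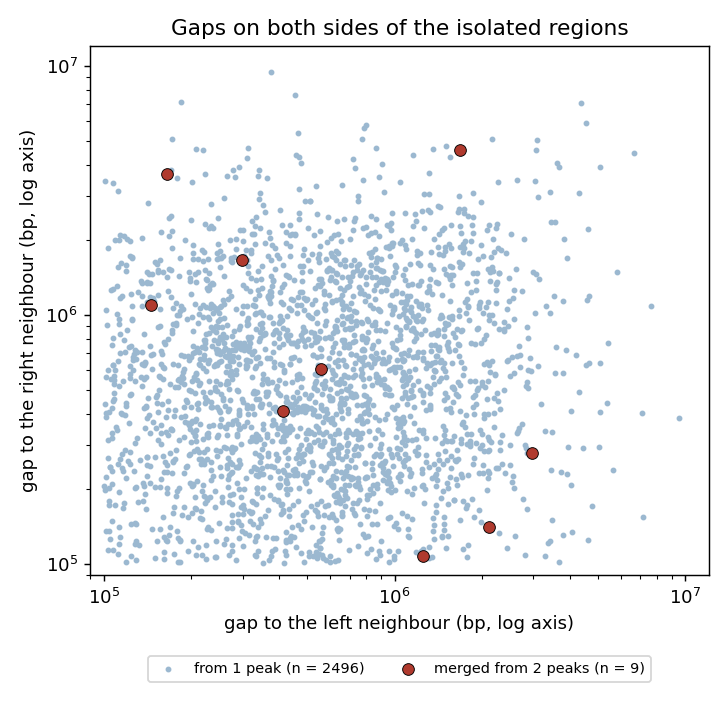
Gap to the left neighbour (horizontal axis) against gap to the right neighbour (vertical axis), both in bp on log axes, for the 2505 isolated regions with neighbours on both sides. The 2496 regions from 1 peak form a square cloud above 100 kb with no ridge on the diagonal, and the 9 regions merged from 2 peaks (large points) are spread through it.

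The most isolated regions had more than 3 Mb free on both sides. There were 11 of these, and all came from 1 peak; the 10 with the largest smaller gap lay on chromosomes 1, 2, 4, 7, 12, 15 and 19. The first in order was chr7:10758204-10758404, with 4.57 Mb free on the left and 5.89 Mb on the right. Its left neighbour, chr7:6190160-6190549, was itself an isolated region and is described among the merged regions. The second was chr2:86898790-86898990, with 6.65 Mb on the left and 4.45 Mb on the right, and the third was chr1:145729146-145729346, with 4.37 and 7.10 Mb.

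The next in order of isolation were on chromosomes 15 and 12. The region chr15:17423563-17423763 had 5.06 Mb free on the left and 3.92 Mb on the right. Chromosome 12 held 3 of the 10, at chr12:96761305-96761505 (smaller gap 3.66 Mb), chr12:21214935-21215135 (3.62 Mb) and chr12:47009815-47010015 (3.11 Mb). The last 3 were chr4:75091625-75091825, with 3.08 and 5.05 Mb free, and 2 neighbours on chromosome 19, chr19:10111033-10111233 and chr19:13184091-13184291, which lay 3.07 Mb apart. The 2 on chromosome 19 had 4.31 Mb free on the left of the first and 4.59 Mb free on the right of the second. All 10 regions had the standard width of 201 bp.

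Wide stretches without any region were bounded mainly by isolated regions. Of 757 stretches above 1 Mb between neighbouring autosomal regions, 581 had an isolated region at both ends, 171 at 1 end and 5 at neither end. The widest stretch, 9.47 Mb, lay on chromosome 15 between positions 25465061 and 34932481. The next were 7.62 Mb on chromosome 7 (38911676 to 46528926), 7.17 Mb on chromosome 3 (44409885 to 51575826) and 7.10 Mb on chromosome 1 (145729346 to 152827284), each with isolated regions at both ends. Isolated regions made up 69.6% of all autosomal regions, so many stretches of any length have them at their ends. They also have wide gaps by the way they were chosen, so these counts are a description.

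Regions merged from 2 peaks were rare among the isolated regions. The name of each region ends in 1 or 2, read here as the number of peaks merged into it; the list does not define this number or say from which library a peak came. Among all 3636 autosomal regions, 53 (1.46%) were merged from 2 peaks. Among the 2531 isolated regions 10 were, or 0.395% (exact 95% interval 0.190 to 0.725%). The share was 0.242% (0.0293 to 0.872%) in the 826 regions spaced 10 to 100 kb, where 2 were merged, and 14.7% (10.8 to 19.4%) in the 279 regions within 10 kb of another, where 41 were. The isolated regions and those spaced 10 to 100 kb thus had shares whose intervals overlap, both below the share of the closest class. Of the 43 merged regions in both nearer classes 27 lay on chromosome 9, among them both of those spaced 10 to 100 kb. Without that chromosome, the share was 0.377% (0.172 to 0.714%) in the isolated regions. In all other autosomal regions together it was 1.58% (0.904 to 2.55%), and all 16 merged ones were within 10 kb of another region. The class spaced 10 to 100 kb then held 0 merged regions. Of the 41 merged regions within 10 kb of another, 23 lay in the first 200 kb after position 3 Mb. Those stretches held 43 regions of this class. They also held 1 of the 10 merged isolated regions and 0 of the 2 merged regions spaced 10 to 100 kb. All shares of merged regions come from the list whose positions chose the regions. Regions that stand close together are not independent, so the shares were not tested against each other.

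Within the isolated regions the merged share lay between 0.266 and 0.618% at each distance up to 2 Mb. It was 4 of 647 (0.618%) at 100 to 200 kb, 3 of 1127 (0.266%) at 200 to 500 kb, 2 of 544 (0.368%) at 500 kb to 1 Mb and 1 of 186 (0.538%) at 1 to 2 Mb. The exact 95% intervals of these 4 shares all overlap, from 0.169 to 1.58% in the first to 0.0136 to 2.96% in the last. Above 2 Mb there were 0 of 27, which allows a share of up to 11.1% by the limit of 3 counts and 12.8% by the exact 95% interval.

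**Figure D3:**
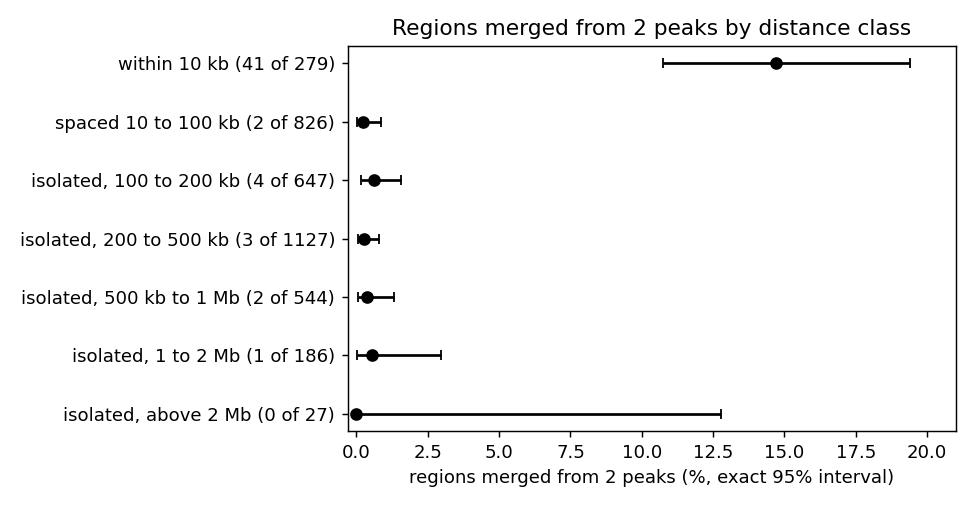
Share of regions merged from 2 peaks in percent (horizontal axis) with exact 95% intervals as bars, by distance to the nearer neighbour (rows, with the counts). The regions within 10 kb of another stand at 14.7%, and the other 6 rows lie at or below 0.618%.

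The 10 isolated regions merged from 2 peaks lay on 9 chromosomes, and no 2 of them were neighbours. Their widths ranged from 201 to 390 bp, with a median of 210.5 bp, and fell into a narrow and a wide set. If each parent peak was 201 bp wide, as every region from 1 peak is, the parents of 8 regions shared at least 183 bp. Those 8 were 201 to 219 bp wide. On the same assumption the other 2 regions, both on chromosome 7, came from peaks that overlapped much less.

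The widest region of all autosomes was one of these, chr7:6190160-6190549. At 390 bp it would come from parents that shared 12 bp, or 5.97% of a peak. It had 1.67 Mb free on the left and 4.57 Mb on the right, the largest smaller gap of the 10 and rank 55 among all isolated regions. The other wide one, chr7:28198150-28198477, was 328 bp wide, with 74 bp (36.8%) shared. Its neighbours lay 145.2 kb to the left and 1.09 Mb to the right, and these 2 regions, 22.0 Mb apart, were the only isolated pair of merged regions on the same chromosome. Of the 5 widest autosomal regions they were the only 2 that stood isolated. Only merged regions were wider than 201 bp, and 10 of the 53 merged autosomal regions were isolated.

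With parent peaks of 201 bp, the 8 narrow regions would come from peaks at nearly the same position. The region chr4:70039104-70039304 was 201 bp wide, as it would be if its 2 peaks coincided. Its neighbours lay 2.11 Mb to the left and 140.4 kb to the right. The regions chr6:103599056-103599257 and chr18:56463102-56463303 were 202 bp wide. The first had free stretches of 298.7 kb and 1.66 Mb, and the second of 1.25 Mb and 107.6 kb. At the proximal end of chromosome 12, chr12:3109929-3110132 (204 bp) was the first region of its chromosome, with its only neighbour 641.1 kb to the right.

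The remaining 4 were 209 to 219 bp wide. The region chr9:123371004-123371212 (209 bp) lay near the middle of its free stretch, 413.7 kb from its left and 410.9 kb from its right neighbour. It stood 88.3 Mb away from the nearest other merged region of chromosome 9, the chromosome that held most merged regions. The region chr17:71312997-71313215 (219 bp) was also near the middle, with 559.4 and 606.0 kb free. The others were lopsided: chr13:77578158-77578369 (212 bp) had 165.0 kb on the left and 3.68 Mb on the right, and chr10:106980162-106980374 (213 bp) had 2.97 Mb on the left and 278.5 kb on the right. In all 10 at least 1 neighbour was an isolated region, and in 8 both were.

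The isolated regions were spread over all autosomes at a similar density. Over the 2386 Mb between the first and last listed region of each chromosome there were 1.06 isolated regions per Mb (exact 95% Poisson interval 1.02 to 1.10). The density ranged from 0.857 per Mb on chromosome 15 (84 regions, 0.684 to 1.06) to 1.37 per Mb on chromosome 11 (163 regions, 1.17 to 1.60), a 1.60-fold range. On 18 of the 19 chromosomes the interval held the mean over all autosomes, and chromosome 11 was the exception. The other autosomal regions ranged 2.90-fold, from 0.257 per Mb on chromosome 7 to 0.745 on chromosome 9. All autosomal regions together ranged 1.60-fold, as the isolated ones did. The rule keeps isolated regions more than 100 kb apart and places closer ones in the other classes, so these densities are a description.

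The share of a chromosome's regions that stood isolated ranged from 58.3 to 81.3%. It was highest on chromosome 7, with 165 of 203 regions (81.3%, exact 95% interval 75.2 to 86.4%), followed by chromosome 6 with 156 of 202 (77.2%, 70.8 to 82.8%) and chromosome 1 with 221 of 290 (76.2%, 70.9 to 81.0%). The lowest were chromosome 18 with 84 of 144 (58.3%, 49.8 to 66.5%), chromosome 9 with 141 of 231 (61.0%, 54.4 to 67.4%) and chromosome 2 with 182 of 298 (61.1%, 55.3 to 66.6%). These chromosomes were picked as the extremes of 19, and the shares rest on the gaps that chose the regions, so they are a description. On 12 of 19 chromosomes the interval held the share over all autosomes, 69.6%. Regions within 100 kb of each other are both left out of the isolated ones, so regions are not independent and these intervals may be too narrow. The median distance to the nearer neighbour ran from 253.8 kb on chromosome 19 to 385.8 kb on chromosome 5.

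**Figure D4:**
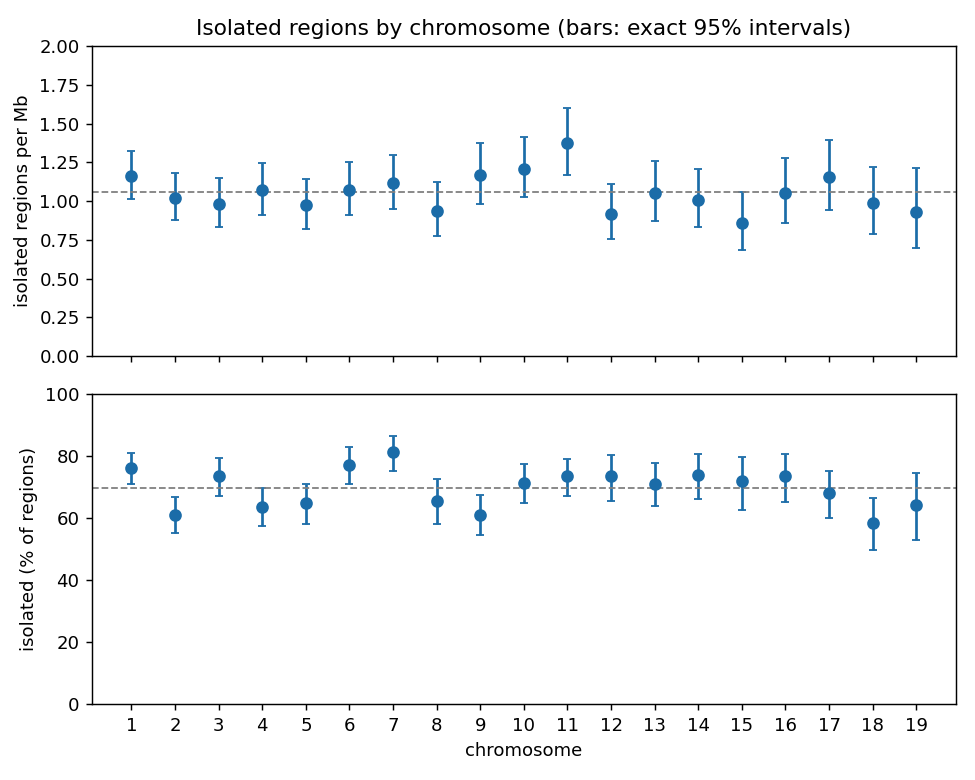
Isolated regions per Mb of listed span (upper panel) and as percent of the chromosome's regions (lower panel) for the 19 autosomes, with exact 95% intervals as bars and the value over all autosomes as a dashed line. Chromosome 11 stands above the line in density, and chromosomes 7 and 18 mark the highest and lowest share.

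Isolated regions mostly followed one another along the chromosome. Of the 2531, 1805 (71.3%) had isolated regions as neighbours on both sides, 656 (25.9%) on 1 side and 70 (2.77%) on neither. For 2152 of them (85.0%) the nearer neighbour was another isolated region. For 312 (12.3%) it was a region spaced 10 to 100 kb and for 67 (2.65%) a region within 10 kb of another. Among all autosomal regions the 3 classes made up 69.6%, 22.7% and 7.67%. The isolated regions formed 398 unbroken series with a median of 4 regions, and the 81 series of 10 or more held 1320 regions, 52.2% of the isolated ones. The longest ran for 42 regions and 44.2 Mb on chromosome 7, from 31527595 to 75777515, all from 1 peak. The next had 27 regions each, on chromosome 1 from 52081727 to 74402828 and on chromosome 16 from 26373936 to 45961504. The gaps that set the classes also shape these neighbours and series, so the counts are a description.

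Along the chromosomes the isolated regions were present in every full window of 10 Mb. The windows began at 10 Mb and ended with the last full one, and they held 2312 of the 2531 isolated regions. In these 219 windows the number of isolated regions had a median of 10 and a middle 50% of 8 to 13, and no window was empty. The variance of these numbers was 1.41 times their mean, more than Poisson counting alone gives, so Poisson intervals understate the spread. For all autosomal regions in the same windows the variance was 2.43 times the mean. The rule keeps isolated regions more than 100 kb apart, which also shapes these numbers, so both ratios are a description. The fullest window was at 30 to 40 Mb on chromosome 6, with 25 isolated of 31 regions, followed by 130 to 140 Mb on chromosome 4 with 23 of 33 and 180 to 190 Mb on chromosome 1 with 21 of 23. The emptiest was at 80 to 90 Mb on chromosome 2, with 1 isolated of 4 regions; this was the second most isolated region named earlier. In 46 windows every region was isolated, among them 40 to 50 Mb on chromosome 7 with 2 regions and 140 to 150 Mb on chromosome 1 with 3.

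**Figure D5:**
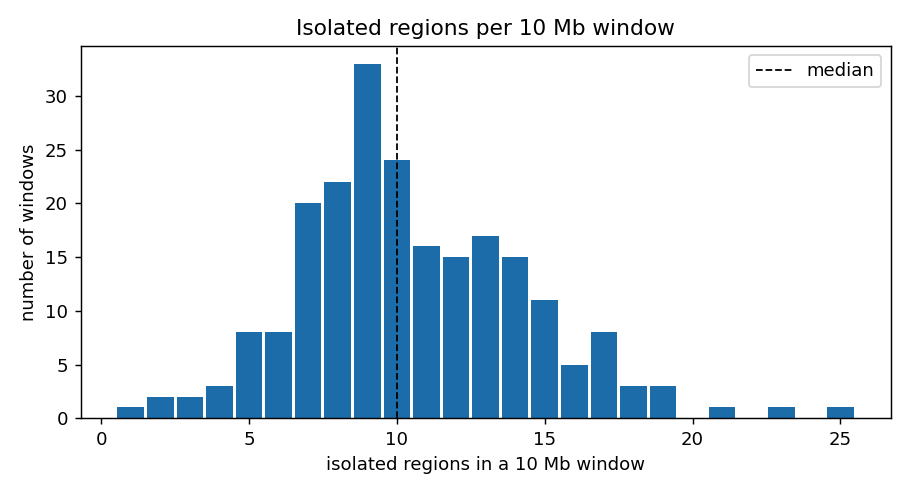
Number of 10 Mb windows (vertical axis) by the number of isolated regions they held (horizontal axis), with the median of 10 as a dashed line. The 219 windows run from 1 to 25 isolated regions and none is empty.

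Toward the distal ends the isolated regions were somewhat denser. The last of 5 equal parts of the listed span held 594 of the 2531 (23.5%, exact 95% interval 21.8 to 25.2%), against 457 (18.1%, 16.6 to 19.6%) in the first part, which begins at the centromere side of these chromosomes. The other autosomal regions were also most frequent in the last part, with 291 of 1105 (26.3%). Isolated regions were 67.1% of all regions in the last part and 69.9% in the first. In the last 5 Mb of the span there were 122 isolated regions (1.28 per Mb) and in the first 5 Mb 93 (0.979 per Mb). Regions spaced 10 to 100 kb numbered 45 in the last 5 Mb and 20 in the first. Those within 10 kb of another went the other way, with 23 in the last 5 Mb and 53 in the first. In the first 200 kb after position 3 Mb lay 3 isolated regions, 3 of those spaced 10 to 100 kb and 43 of those within 10 kb of another. A window of this length can hold few regions more than 100 kb apart, so these counts are a description. The 3 isolated ones were chr3:3097304-3097504, chr12:3109929-3110132 and chr16:3116260-3116460, each the first region of its chromosome and so judged by its right gap alone.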

How the data were processed

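Regions came from the single merged list that the authors deposited for 4 ChIP-seq libraries (2 anti-Flag, 2 input), which were grouped by title. Bowtie 0.12.7 and HOMER on build mm9 are named, per the submitters' processing notes, and the design text of the series states that background was subtracted. How peaks were called and merged is not given in the sources used here, nor is a threshold. The score the authors deposited is 1 in every row and was not used. The deposited starts and ends, in bp, carry no reads, so depth is unknown, and intervals (exact binomial by Clopper-Pearson, or Poisson) cover counting error only.

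Gaps, classes and counts were computed with Python 3.11.15, numpy 2.4.6, pandas 2.3.3 and scipy 1.17.1, and plotted with matplotlib 3.10.9. The distance classes were tested on made-up positions with known answers and were right in 20 of 20 lists. Named regions are all isolated regions merged from 2 peaks, the 10 most isolated, the 5 on each side of the limit and those in the first 200 kb after 3 Mb. The regions, the limit and these rules were chosen with earlier results of these data known. No test was run, since the same list chose the members. Other distances, centre distances and regions joined within 1 kb were tried. Planned comparisons with genes, motifs and GC content were left out, as they need mm9 sequence and genes and the gene tables at hand are of another assembly.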

Additional observations from a re-analysis of the deposited data

How the results depend on the processing

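The number of isolated autosomal regions follows the chosen distance. It was 2531 (69.6% of autosomal regions) at 100 kb, 2958 (81.4%) at 50 kb, 1884 (51.8%) at 200 kb and 757 (20.8%) at 500 kb. Joining regions within 1 kb first gave 2543 isolated regions (71.2%). The share stayed inside its counting interval, between 68.9 and 70.5%, with distances between centres, with chromosome-end regions counted among all regions but not as isolated, and without the first 200 kb after 3 Mb. The share of isolated regions merged from 2 peaks (0.395%) lay inside its counting interval in all 9 alternatives run, with 0.318% at 200 kb the lowest and 0.472% with joined regions the highest. A joined region counted as merged from 2 peaks only where 1 of its parts already was. Joining regions from 1 peak each thus added none, and the 0.472% holds for this way of counting only. Alternatives on genes, GC content and motifs were left out, as they need mm9 sequence. No paired analysis was possible because every group is a lone library and the deposited regions are pooled over libraries. The list carries no depth, so a lone region cannot be told from one whose weaker neighbours were missed.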

Other observations

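On chromosome X, 31 of 102 regions met the same distance (30.4%, exact 95% interval 21.7 to 40.3%), and their median distance to the nearer neighbour was 2551 kb. Among these 31, 1 was merged from 2 peaks. On chromosome Y, 0 of 37 regions did, which allows a share of up to 8.11% by the limit of 3 counts and 9.49% by the exact 95% interval. Both shares lie below the 69.6% of the autosomes, and the difference was not tested.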
